A study of Gossypium hirsutum with 12 samples.

Results

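The genes described here encode 3 enzymes and proteins that loosen or remodel the plant cell wall, out of 37500 genes in the deposited table. They are an alpha expansin matched to EXPA8 (Gorai.011G128500), an endo-xyloglucan transferase (Gorai.007G057400) and a beta-galactosidase (Gorai.002G197100). They were picked by gene ID, with their higher level at 12 d post-anthesis (DPA) already known, so the stage ratios below are descriptions and no test was run on them. The series holds 12 RNA-seq libraries of Gossypium hirsutum (upland cotton), each from a different pairing of 6 lines with 2 ages, 0 and 12 DPA. BCF, GCF and WCF were the wild-type lines with brown, green and white fibers. The transgenic lines 5#, 6# and 24# had brown, green and white fibers and were sister progeny of 1 transformed brown cotton plant, which carried an RNAi hairpin against the chalcone isomerase gene GhCHI-1 under the CaMV35S promoter. The labels call every sample fiber, whereas the methods name both ovules and fibers as collected. They do not say which tissue was taken at 0 DPA and which at 12 DPA. Lipid transfer protein genes, whose transcripts are known to be abundant in cotton fiber, were read at both stages (FSltp1, Gorai.011G128200, 515 and 11920 normalized counts at 0 and 12 DPA, a gene picked after its values were seen). No list of ovule markers was used, and stage and tissue cannot be told apart where the tissue differed. In such bulk RNA, fewer cells of a type and less RNA per cell cannot be told apart either.

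A growing plant cell is held in by a wall of cellulose microfibrils tied together by xyloglucan and embedded in pectin. Expansins loosen the contacts between these polymers without cutting them, endo-xyloglucan transferases cut xyloglucan chains and join the ends to other chains, and beta-galactosidases remove galactose from the side chains of wall polysaccharides. The cotton fiber is a single epidermal cell of the ovule that starts to grow out around anthesis and is elongating at 12 DPA, and it is a textbook case of a cell whose wall must yield while it lengthens.

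All values are means of normalized counts over the 6 libraries of a stage, that is, reads per gene divided by a size factor for each library. The deposited columns are named RPKM, but they are not divided by gene length, so ranks refer to read abundance and not to transcripts per cell. The lines are not separated in these means. The normalized counts of all genes added up to 3044867 in the 0 DPA mean and 4870048 in the 12 DPA mean. Dividing by these totals would lower every log2 ratio by 0.68, while the median lay at -0.02 as deposited (over 21693 genes whose mean of both stages reached 10).

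EXPA8 went from a mean of 242 normalized counts at 0 DPA to 37289 at 12 DPA. This was a ratio of 154 or 7.27 on the log2 scale, and 6.59 after division of either mean by the sum over its genes. At 0 DPA it was already well covered, at rank 2884 of 37500 genes and percentile 92.3. At 12 DPA only 1 gene had a higher mean, and EXPA8 alone held 0.766% of all normalized counts, against 0.00796% at 0 DPA. About 1641 reads at 0 DPA and 221995 reads at 12 DPA stood behind these means, as estimated from the size factors and an even level over libraries, so counting error was small beside the ratio. The spread between lines could not be computed for EXPA8, because a mean of this size can be split into whole reads in many ways. The name EXPA8 came from the cotton record matched to the gene ID. In RefSeq (Gossypium_hirsutum_v2.1) it is a synonym of 1 gene that is also called EXPA1 and EXPA2, so the number in an expansin's name does not identify it across records.

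The endo-xyloglucan transferase went from 21.7 normalized counts at 0 DPA to 4426 at 12 DPA. The log2 ratio was 7.67, the largest of the 3 genes, or 6.997 with stages scaled by their gene sums. That scaling lowers every gene alike and cannot change their order. The counting interval given below for the beta-galactosidase spans 7.67, so which of these genes had the largest ratio is not resolved. Unlike EXPA8 the endo-xyloglucan transferase started in the middle of the ranking, at percentile 51.4 (rank 18218), and ended at percentile 99.8 (rank 89). By the same estimate as for EXPA8, which takes an even level over the 6 libraries, its 0 DPA mean rested on about 147 reads. Its 12 DPA mean rested on about 26352. How these reads were spread over the libraries is not known.

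The beta-galactosidase gene was nearly unread at 0 DPA, with a mean of 0.485 normalized counts, and reached 92.0 at 12 DPA. It moved from percentile 22.1 to percentile 75.4 of all genes, so at 12 DPA it was a gene of moderate read abundance and not one of the most abundant. The log2 ratio was 7.57, close to that of the other two, but it rested on far fewer reads. The 0 DPA mean could be split exactly: it was made of 4 reads, 2 in the library numbered 1 here and 2 in the library numbered 3, and the other 4 libraries had none. Libraries are numbered by falling size factor and could not be assigned to lines. In normalized counts the 0 DPA libraries held 1.2, 0, 1.71, 0, 0 and 0 (mean 0.485 ± 0.769, SD, n = 6). The exact Poisson 95% interval of 4 reads runs from 1.09 to 10.2, which puts the stage ratio of 190 between 74.0 and 696, or between 6.21 and 9.44 on the log2 scale. The interval covers counting error only. It spans the ratios of the other two genes, and without libraries 1 and 3 the 0 DPA mean would be 0.

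**Figure D1:**
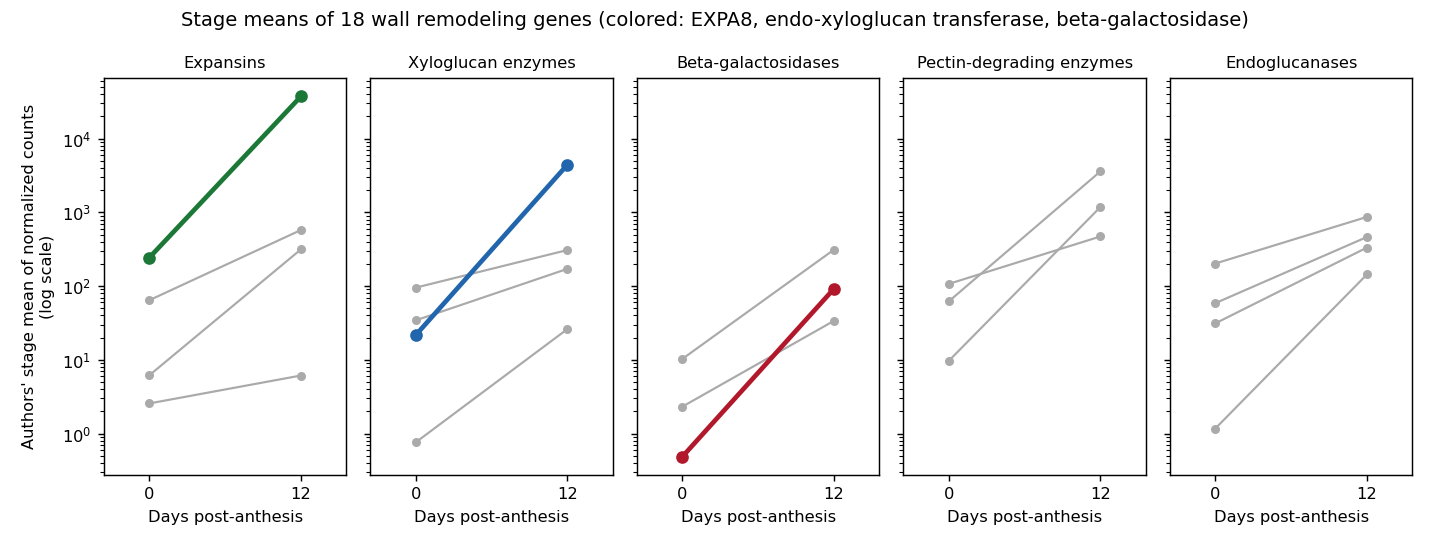
Stage means of 18 wall remodeling genes at 0 and 12 DPA, in normalized counts on a log scale, 1 panel per enzyme group and 1 line per gene, with no error bars because the deposited values are means. The colored lines are EXPA8 (242 to 37289), the endo-xyloglucan transferase (21.7 to 4426) and the beta-galactosidase (0.485 to 92.0), and all 18 lines go up.

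As deposited, all 3 genes were past a 100-fold ratio, as were 0.774% of the 21693 genes averaging 10 or more. The genes were chosen for this contrast, so nothing is read from that share. The count is not stable: EXPA8 fell below 100-fold with the stages scaled by their gene sums (log2 6.59), and the beta-galactosidase did so with 1 added to both means (log2 5.97). By ratio they stood at rank 100 (EXPA8), 77 (endo-xyloglucan transferase) and 80 (beta-galactosidase) of the 21693 genes. The beta-galactosidase reached the average of 10 only through its 12 DPA mean. Its rank and percentile by ratio are loose, because they rest on 4 reads at 0 DPA. The distribution of ratios had its bulk near 0, and EXPA8, the endo-xyloglucan transferase and the beta-galactosidase lay at percentiles 99.5, 99.6 and 99.6.

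**Figure D2:**
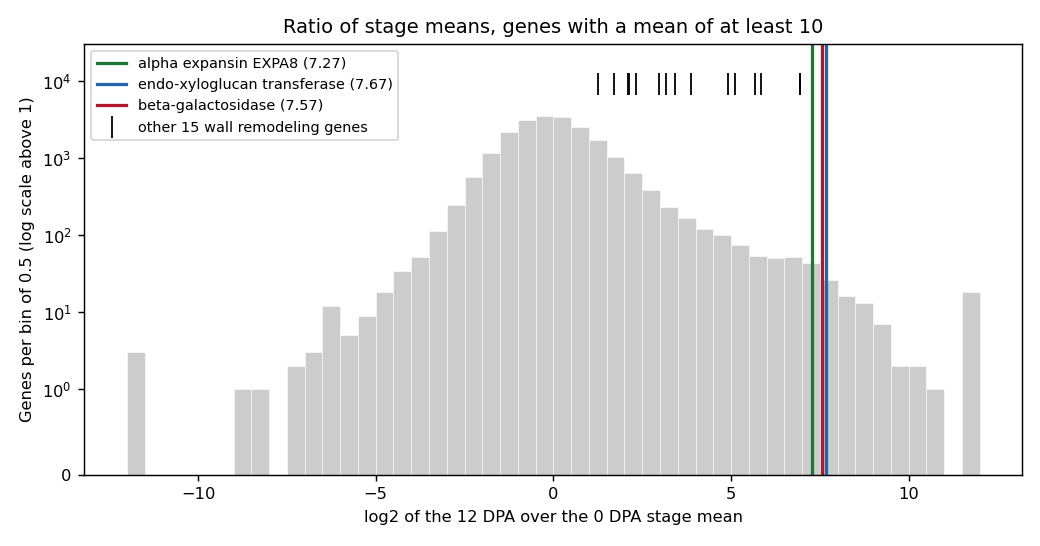
Histogram of the log2 ratio of the 12 DPA to the 0 DPA mean for 21693 genes with a mean of at least 10, with a log count axis. Colored lines mark EXPA8 (7.27), the beta-galactosidase (7.57) and the endo-xyloglucan transferase (7.67), black ticks the other 15 wall remodeling genes (1 of them, EXPA3, has a mean under 10), and the outermost bars hold 18 genes listed at 0 at 0 DPA and 3 listed at 0 at 12 DPA.

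The wider group of wall remodeling genes was taken by description from cotton records that the study pairs with gene IDs, and holds 18 genes with the 3 above. All 18 had a mean at least 2-fold higher at 12 DPA and 0 were at least 2-fold lower, where 24.3% of the 33463 genes with a mean above 0 were higher and 26.3% lower by that fold. At least 8-fold higher were 12 of the 18, against 8.48% of all genes. The median log2 ratio was 4.39 for the 18 genes and 3.41 for the 15 without the chosen genes. The records cover a selected part of the genes, mostly ones higher at 12 DPA: of 554 genes with a record that names a product, 89.5% were at least 2-fold and 39.4% at least 8-fold higher, with a median log2 ratio of 2.49. The direction of the group is therefore no independent evidence.

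The other expansins of this group had smaller ratios than EXPA8. Expansin genes without a matched record are not covered. Alpha-expansin 2 (Gorai.009G293500) went from 6.17 to 315 normalized counts (log2 ratio 5.67), and an expansin matched to an A-genome record (Gorai.001G111100) from 64.3 to 576 (3.16). EXPA3 (Gorai.001G239700) stayed low, with 2.56 normalized counts at 0 DPA and 6.13 at 12 DPA. For EXPA3 both means could be split into reads. The 0 DPA libraries held 3.00, 2.81, 3.42, 0, 0 and 6.16 normalized counts (SD 2.33, n = 6), and the 12 DPA libraries, numbered separately, 12.3, 0.952, 4.78, 5.14, 10.98 and 2.6 (SD 4.57, n = 6). The ranges of the stages overlapped for EXPA3, and its log2 ratio of 1.26 shrank to 0.58 with stages scaled by their gene sums, below 2-fold.

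Among the 4 enzymes of the group that act on xyloglucan, the endo-xyloglucan transferase had the largest ratio. It was chosen for its higher level at 12 DPA, and genes of the family without a matched record are not covered. XTH3 (Gorai.007G228100), a xyloglucan endotransglucosylase/hydrolase of the same enzyme family, went from 0.762 to 26.2 normalized counts (log2 ratio 5.10), with only 6 reads at 0 DPA. XTH2 (Gorai.003G033600) went from 34.3 to 171 (2.32), and a putative xyloglucan endotransglycosylase (Gorai.005G025000) from 95.3 to 308 (1.69). The endo-xyloglucan transferase held 14.2% of the normalized counts of these 4 genes at 0 DPA and 89.7% at 12 DPA. EXPA8 likewise held 76.8% of the normalized counts of the 4 expansins of the group at 0 DPA and 97.7% at 12 DPA. Neither is a share of a whole gene family. Gene length weighs on each of these shares but is the same at both stages.

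The beta-galactosidase gene is 1 of 3 gene IDs matched to the same cotton record. Gorai.002G197200, which carries the next ID number, went from 10.3 to 312 normalized counts (log2 ratio 4.92), and Gorai.N027400 from 2.32 to 33.8 (3.87). Reads that align equally well to several copies are set aside by the counting tool, so each mean may be too low and the split between the copies is uncertain. The 3 IDs together summed to 13.1 normalized counts at 0 DPA and 438 at 12 DPA, a ratio of 33.4. At 0 DPA Gorai.N027400 had 7, 1, 7, 1, 0 and 1 reads in libraries 1 to 6, with 73.3% of its normalized counts in libraries 1 and 3. The 4 reads of the beta-galactosidase gene lay in these same libraries, but are too few to compare its spread with that of the other copies. Gorai.002G197200 had 13, 6, 20, 4, 4 and 12 reads, and library 6, which has the smallest size factor, gave its highest value of 24.6 normalized counts against a stage mean of 10.3 ± 8.67 (SD, n = 6).

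Pectin-degrading enzymes and endoglucanases completed the group. A pectate lyase, which cuts the pectin backbone, went from 62.1 to 3596 normalized counts (Gorai.003G108300, log2 ratio 5.86), and a second gene matched to the same record from 9.70 to 1182 (Gorai.008G203900, 6.93). A polygalacturonase (Gorai.007G026000) had a smaller ratio, with 107 and 471 normalized counts (log2 2.14). The endo-1,4-beta-glucanases, which cut beta-glucan chains, had log2 ratios of 2.98 (Cel1, Gorai.003G080800), 2.1 (Gorai.010G143300) and 3.41 (Gorai.008G254000). An endo-1,3-beta-glucanase (Gorai.009G242500), of the class that degrades callose, went from 1.17 to 144 normalized counts (log2 ratio 6.94), with 9 reads at 0 DPA. With stages scaled by their gene sums, 17 of the 18 genes remained at least 2-fold higher, and EXPA3 was the exception.

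The reads behind the low 0 DPA means were spread unevenly over the libraries. Of the 18 genes, 8 had a 0 DPA mean that could be split into reads in 1 way only, the beta-galactosidase among them. Libraries 1 and 3, with size factors of 1.67 and 1.17, would hold 33.3% of the normalized counts at equal levels. They held 40.4% to 100% in these 8 genes, with a median of 61.5%, and at least 50% in 6 of the 8. In the pectate lyase Gorai.008G203900 the libraries had 25, 5, 22, 10, 9 and 1 reads, which is 15, 3.51, 18.8, 9.59, 9.20 and 2.05 normalized counts. Libraries 1 and 3 were the highest in that gene and libraries 2 and 6 the lowest. In alpha-expansin 2 the reads were 18, 6, 13, 6, 5 and 0, again highest in libraries 1 and 3 after division by size factor (10.8 and 11.1 normalized counts against 0 to 5.76). The 2 libraries were singled out after these values were seen.

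**Figure D3:**
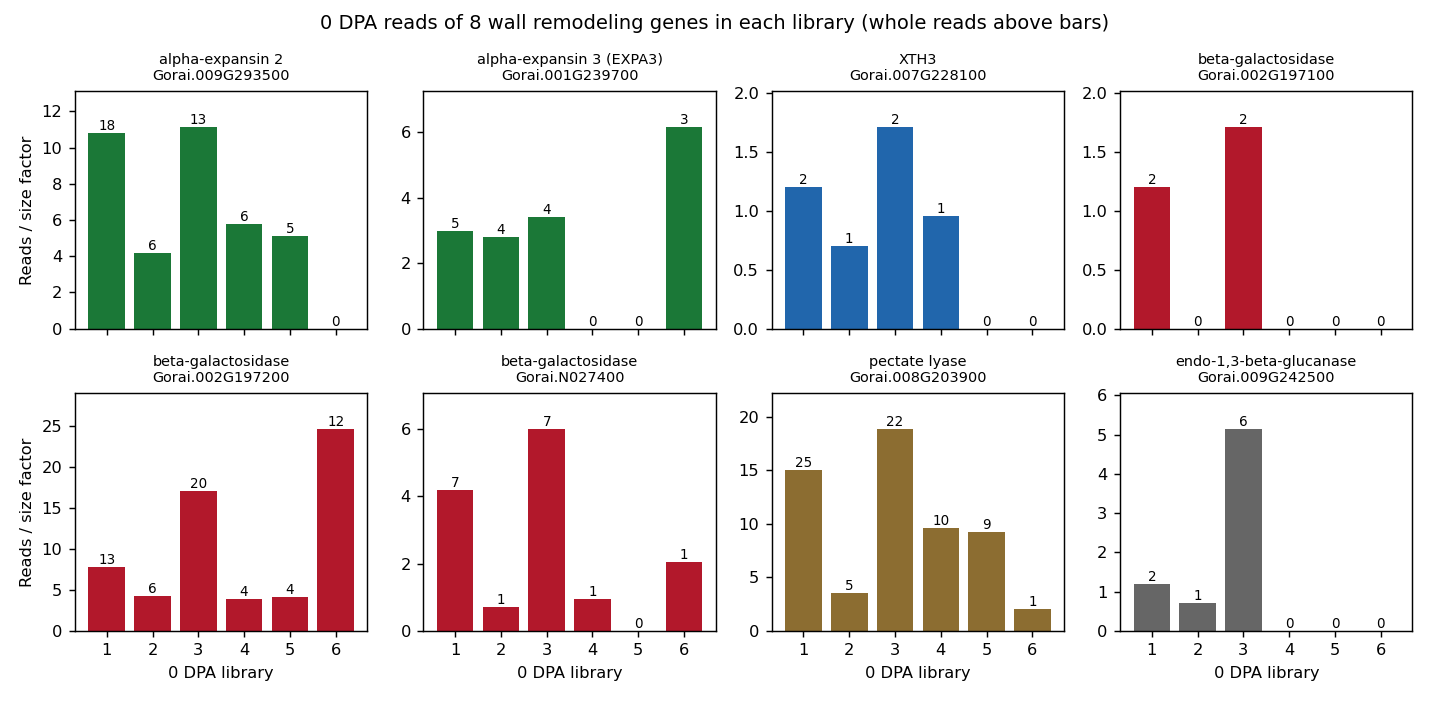
Normalized counts (reads divided by size factor) of 8 wall remodeling genes in each of the 6 libraries at 0 DPA, with whole reads printed above the bars. Libraries 1 and 3 hold all 4 reads of the beta-galactosidase gene Gorai.002G197100, and library 6 is the highest in Gorai.002G197200 and EXPA3.

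The same libraries were then looked at over all genes whose 0 DPA reads could be split, with the group not left out. The beta-galactosidase, the pectate lyase Gorai.008G203900 and the endo-1,3-beta-glucanase Gorai.009G242500 are among the 119 genes below. That set is therefore not independent of the genes that drew attention to these libraries. Among 119 genes that were at least 64-fold higher at 12 DPA and had a 0 DPA mean of at least 4 reads that could be split, libraries 1 and 3 held on average 26.7% and 27.0% of a gene's 0 DPA normalized counts. Library 2, with the second largest size factor, held 10.6%. Among 3117 genes within 2-fold between the stages, library 1 held 16.1%, library 2 16.6% and library 3 22.0%, where equal levels would give 16.7% each. The pair of libraries thus held 53.7% in the first set and 38.1% in the second. What set these libraries apart was not tested.

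**Figure D4:**
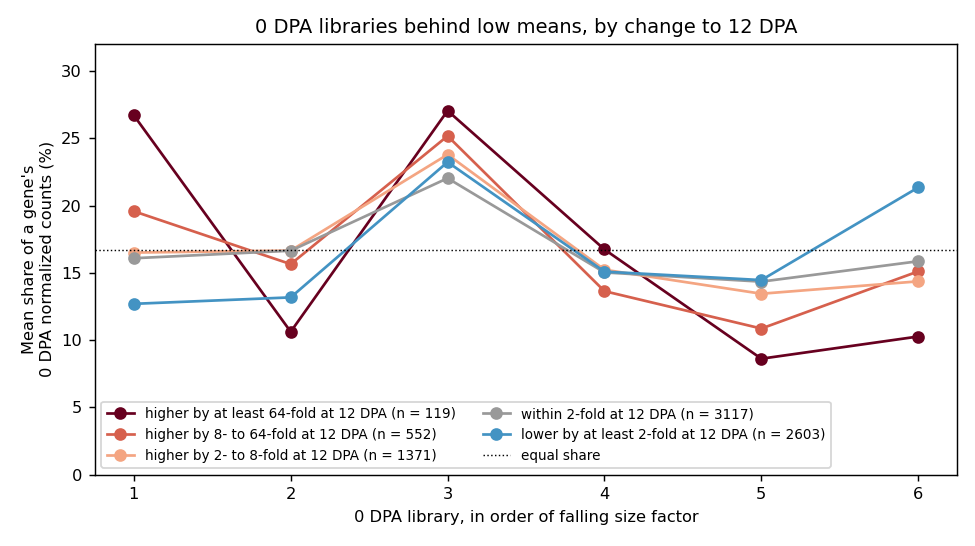
Mean share of a gene's 0 DPA normalized counts held by each of the 6 libraries, for genes with low 0 DPA means of at least 4 reads, grouped by their 12 over 0 DPA ratio. Libraries 1 and 3 hold 26.7% and 27.0% for 119 genes at least 64-fold higher at 12 DPA, against 16.1% and 22.0% for 3117 genes within 2-fold, and the dotted line marks the equal share of 16.7%.

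Genes with stage means most like those of the 3 were sought among the 554 genes with a record that names a product, by the distance of log2(mean + 1) at both stages. Nearest to EXPA8 was a lipid transfer protein gene (LTP, Gorai.011G128100), which went from 340 to 35774 normalized counts at a distance of 0.49, followed by a metallothionein-like gene (met-1, Gorai.002G257700, distance 0.81) and the proline-rich protein gene PRP1 (Gorai.005G049400, 1.64). Nearest to the endo-xyloglucan transferase were beta-tubulin 1 (Gorai.004G211800, 19.3 to 2757 normalized counts, distance 0.70), a gene matched to the clone pFS18 (Gorai.004G020900, 1.0) and an aquaporin gamma-TIP (Gorai.013G265400, 1.11). Nearest to the beta-galactosidase were a glycine-rich protein (Gorai.006G083000, 0.537 to 97.2 normalized counts, distance 0.09), a cysteine proteinase inhibitor (Gorai.005G022600, 0.22) and a phosphoglycerate dehydrogenase (Gorai.012G149100, 0.47). With 2 stage means per gene the likeness rests on 2 points. Of all 37500 genes, 8309 had a 0 DPA mean as low as that of the beta-galactosidase or lower, and 13 of those, itself included, reached its 12 DPA mean.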

How the data were processed

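Per the labels and the study's methods, the authors trimmed reads with Trimmomatic 0.32, aligned them with TopHat and Bowtie2 2.2.4 to the Gossypium raimondii genome, counted them per gene with HTSeq 0.6.0 and used DESeq 1.18.0; TopHat2 2.0.13 is in the submitters' processing notes. Whether strand was used in counting was not stated. The deposited values used are a signal: the authors' mean of normalized counts at each stage. The authors' own comparison columns (fold changes, p-values, adjusted p) were not used. The table has 37505 entries, of which 5 summary entries were left out.

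Every mean of up to 1 (4438 at 0 DPA, 4341 at 12 DPA) was a sum of whole reads over 6 size factors to a tolerance of 2e-09, which gives size factors of 0.487 to 1.67 and 0.770 to 1.30. A size factor reflects the composition of a library as well as its depth, and the mapped reads that the study lists per library vary less than these factors at 0 DPA, so the factors are not read as sequencing depth. Of 11084 genes with a 0 DPA mean above 0 and up to 10.5, 10911 split into reads in 1 way. The method was also run on simulated means with size factors drawn at random and not those found here. The outcome of that run is not given, so it lends no weight to the splits. Percentiles are the percent of genes with a lower value. Named genes were the 3 genes, the 18 of the group and the 3 nearest to each; these and all lists were chosen with earlier results of these data known. Alternatives were scaling, a pseudocount of 1, other gene sets for ranks, folds and counting intervals. Python 3.11.15, numpy 2.4.6, pandas 2.3.3, scipy 1.17.1 and matplotlib 3.10.9 were used.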

Additional observations from a re-analysis of the deposited data

Results flagged for a closer look

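Of 9 gene and stage means of wall remodeling genes with a unique split into reads, 1 had a library far from the others. The endo-1,3-beta-glucanase (Gorai.009G242500) had 5.14 normalized counts in 0 DPA library 3 (6 reads), against 1.2, 0.701, 0, 0 and 0 in the other libraries. The gap to the next library was 0.77 of the whole range, above Dixon's critical value for 6 samples. That rule flags about 5% of groups by chance where values are normally distributed. The rate does not hold for reads this few, and each library is of a different line.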

How the results depend on the processing

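Scaling by stage gene sums gave log2 ratios of 6.59 for EXPA8 and 6.997 for the endo-xyloglucan transferase. The log2 ratio of the beta-galactosidase was 5.97 with a pseudocount of 1, which is below its counting interval of 6.21 to 9.44, 6.89 with stage gene sums, and 7.30 to 8.58 when 1 of the 6 libraries at 0 DPA was left out in turn, which was added after seeing the data. Ranked among genes with a mean above 0 or of at least 10, the percentile of EXPA8 was 91.4 or 86.7 at 0 DPA and 99.994 or 99.991 at 12 DPA, that of the endo-xyloglucan transferase 45.6 or 16.0 and 99.7 or 99.6, and that of the beta-galactosidase 12.7 or 0.456 and 72.5 or 57.5. Percentiles of the ratio among genes with a mean of at least 1 or 50 were 99.0 or 99.6 for EXPA8 and 99.1 or 99.8 for the endo-xyloglucan transferase. Of 40 alternative values, 21 stayed within counting error or 1.5 times of a count and 19 moved. No log2 ratio changed sign, and the percentiles and counts among the 40 cannot do so. The bounds of the counting interval are among the 21 by construction, so the tally does not measure robustness. The counting interval of the ratio was not run for EXPA8 and the endo-xyloglucan transferase, whose reads could not be split, nor the ranking at a mean of at least 50 for the beta-galactosidase, which lies below it. No paired analysis was possible because the deposited values are stage means and the recovered libraries carry no line. Few reads limit the low 0 DPA means, where 1 read in library 6 adds 0.342.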

Other observations

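EXPA8 and its nearest gene by pattern, the LTP gene Gorai.011G128100, also lie close together by ID, 4 ID numbers apart on the same chromosome, and held ranks 2 and 3 of all 37500 genes at 12 DPA. A further lipid transfer protein gene between them (FSltp1, Gorai.011G128200) went from 515 to 11920 normalized counts (log2 ratio 4.53, rank 24 at 12 DPA). Other IDs within 5 of EXPA8 varied. Gorai.011G129000 went from 4.77 to 175 normalized counts (log2 ratio 5.20). Gorai.011G128900 (2.07), Gorai.011G128000 (1.56) and Gorai.011G128700 (1.27) were also higher at 12 DPA. Gorai.011G128400 went the other way, from 199.8 to 17.2 (-3.54), as did Gorai.011G128800 at low counts (-3.03). Gorai.011G128300 had 491 and 318 (-0.63), and Gorai.011G128600 was listed at 0 and 0.3. Over all genes with a mean above 0, 24.3% were at least 2-fold higher. Lipid transfer proteins carry lipids to the outer cell surface in plants. Of the 5 IDs on each side of the endo-xyloglucan transferase, none had a log2 ratio above 1.98. These neighbors were looked up after the ranks had been seen, and ID order stands in for position, since no coordinates of the genome build of the files were at hand.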
